A study of Mus musculus with 4 samples.

Results

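Cd28, Icos, Ctla4, Pdcd1 and Btla encode the receptors of the CD28 and CTLA-4 family. Their levels and transcript forms were described in polyA-selected RNA-seq of mouse regulatory T cells that had been through inflammation. The genes were chosen by symbol as 5 of the 55536 annotated genes of the main gene table. All 5 were among the 13045 genes whose mean count reached 10, and none was lost to that filter. The labels give 1 biosample, from an adult male of the Foxp3CreERT2 x Rosa26YFP strain aged 6 months, and trace the cells to a bone marrow hematopoietic cell. In such a strain a tamoxifen-inducible Cre is made from the Foxp3 locus and a yellow fluorescent reporter sits at Rosa26, so the cells can be marked by Foxp3 expression. The labels give neither the agent behind the inflammation nor the sorting gate. The 4 libraries are technical replicates of biological replicate 1 and are named here by their technical replicate number. There was no second group and so no comparison between conditions. Every p-value below measures only the spread between these libraries, which may be technical.

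These receptors tune the response of a T cell to antigen. CD28 and ICOS add a stimulatory signal when they meet CD80 or CD86, and ICOS ligand. CTLA-4 competes with CD28 for the same ligands, and PD-1 (the product of Pdcd1) and BTLA recruit phosphatases that dampen receptor signalling. Regulatory T cells are known for constitutive CTLA-4, which lowers CD80 and CD86 on antigen-presenting cells, and ICOS is a mark of their activated state.

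All 5 genes were expressed in every library. In the main table, values are TPM, which is scaled for transcript length and library size and can be compared between genes. Cd28 stood at 242 ± 3.93 TPM, Icos at 242 ± 57.3, Pdcd1 at 214 ± 44.6, Ctla4 at 158 ± 19.0 and Btla at 44.1 ± 2.48 (SD, n = 4 technical libraries). The value for Cd28 includes a noncoding transcript. The only coding transcript of Cd28 had a mean of 181 TPM, below the means of Icos and Pdcd1. Among 22015 nuclear protein-coding genes ordered by mean TPM, Cd28, Icos, Pdcd1, Ctla4 and Btla held ranks 471, 472, 533, 779 and 2882. The 5 genes together summed to 878, 814, 976 and 934 TPM in libraries 1 to 4. The libraries hold bulk RNA, so fewer cells that express a gene and less of its RNA per cell cannot be told apart.

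The libraries held 6648385 to 9341328 expected counts in annotated genes, with library 4 the shallowest. The label of a regulatory T cell was checked against 7 T cell and regulatory T cell markers, and 7 of 7 reached 10 TPM in all 4 libraries. Trac, Lck and Cd3e, which encode the T cell receptor alpha constant region, its kinase and a CD3 chain, led at 3084, 1449 and 1385 TPM. Those genes mark T cells in general and do not check the regulatory label. Foxp3, the lineage-defining factor, was the lowest of the 7 at 27.8 ± 8.01 TPM. Ikzf2 and Il2ra, named after their values were seen, stood at 412 ± 124 and 204 ± 7.31 TPM. These levels depended on the quantification. From the M4 gene counts, divided by length and scaled to the TPM total, Ikzf2, Il2ra and Foxp3 had means of 66.3, 90.5 and 52.1. Markers of other cells were also read. The 10 B cell markers summed to between 98.2 and 226 TPM, with 8 at 1 TPM or more in all libraries, and none was at 0 in any library. The highest of them were Cd79b (79.1 TPM), Cd79a (23.6) and Ms4a1 (15.2), and the lowest was Blk (1.87). Of 10 myeloid and dendritic markers, 3 reached 1 TPM in all libraries, led by Lyz2 (10.9), Cd68 (4.23) and Zbtb46 (2.59). Adgre1, Siglech, Fcgr1 and Clec9a were at 0 in at least 1 library, and Clec9a was the lowest at 0.0100 TPM. Of 7 CD8 and NK markers, 2 did so, led by Nkg7 (139 TPM), Cd8b1 (11.7) and Cd8a (2.10). Ncr1 was the lowest at 0.163 TPM, and both Ncr1 and Eomes were at 0 in at least 1 library. The 5 erythroid markers summed to 747 TPM in library 1 and to 3.74 to 31.7 in the other 3, led by Hba-a2, Hbb-bs and Alas2. Klf1, the lowest, was at 0 in library 3.

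**Figure D1:**
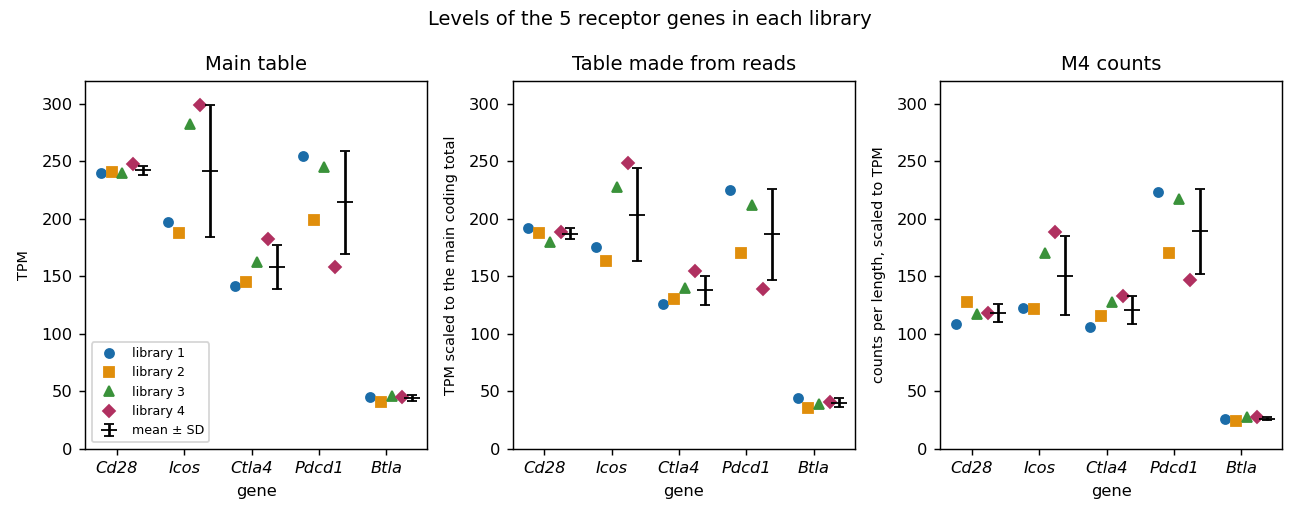
Levels of Cd28, Icos, Ctla4, Pdcd1 and Btla in each library in the main table (TPM), in the table made from the reads (TPM scaled to the coding total of the main table) and from the M4 counts (scaled per length to the TPM total). Points are libraries and bars are mean ± SD over 4 libraries. Btla is below the other genes in every panel, Cd28 spans 240 to 248 TPM in the main table, and Icos spans 188 to 299 TPM.

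Of the stimulatory receptors, Cd28 (ENSMUSG00000026012.2, chromosome 1, 60716800 to 60773359 on the plus strand, mm10) was the steadier in TPM. It stood at 240.0, 241, 240 and 248 TPM in libraries 1 to 4. The values lay within 1.03-fold of each other, and library 4 was the highest. Icos (ENSMUSG00000026009.14, chromosome 1, 60977927 to 61000320, plus strand) stood at 197, 188, 283 and 299 TPM. Libraries 3 and 4 were high and libraries 1 and 2 were low, with no value between 197 and 283.

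Among the inhibitory receptors, Ctla4 (ENSMUSG00000026011.13, chromosome 1, 60887000 to 60915832, plus strand) stood at 141, 145, 162 and 183 TPM, highest in library 4. Pdcd1 (ENSMUSG00000026285.7, chromosome 1, 94038305 to 94052553, minus strand) stood at 255, 199, 245 and 158 TPM. It was lowest in library 4, where Ctla4 and Icos were highest. Btla (ENSMUSG00000052013.15, chromosome 16, 45224315 to 45257670, plus strand) stood at 44.7, 40.4, 45.8 and 45.4 TPM, and library 2 was the lowest.

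Cd28, Ctla4 and Icos lie in 1 cluster on chromosome 1 that spans 283521 bases from the start of Cd28 to the end of Icos. The gene spans of Cd28 and Ctla4 are 113640 bases apart, and those of Ctla4 and Icos 62094. The other annotated features of the cluster had far lower levels. The processed pseudogene Rpl18-ps1, which lies within the span of Ctla4, had 11.1 ± 2.54 TPM, and the unclassified transcript model Gm37039, inside an intron of Icos and on its strand, had 2.97 ± 1.71 TPM. Gm37039 had 1.77, 1.65, 3.12 and 5.34 TPM in libraries 1 to 4, so its higher libraries were those of Icos. Beyond the 3' end of Cd28, Gm11579 and Gm37198 stood at 4.03 and 3.00 TPM. The strand setting of the counting is not given in the sources used here, and reads from overlapping genes may be split between them.

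The order of the genes was only partly fixed. Over the 10 pairs of genes, 6 kept 1 direction in all 4 libraries with a mean log2 ratio of more than 2 SD. Those were Btla against each of the other 4, and Ctla4 against Cd28 and Icos. Cd28 exceeded Btla by a log2 ratio of 2.46 ± 0.08, Icos by 2.42 ± 0.29, Pdcd1 by 2.26 ± 0.32 and Ctla4 by 1.83 ± 0.14. Cd28 exceeded Ctla4 by 0.62 ± 0.15 and Icos exceeded it by 0.59 ± 0.20 (log2 ratio of TPM + 0.1, SD, n = 4). The TPM of Cd28 includes a noncoding transcript. The only coding transcript of Cd28 had 184, 176, 183 and 180 TPM in libraries 1 to 4. Ctla4 had 141, 145, 162 and 183 TPM, so coding Cd28 was below Ctla4 in library 4. The single direction of Cd28 over Ctla4 thus depended on counting the noncoding transcript. Neighbours in the order from Cd28 down to Ctla4 did not differ beyond their spread. The log2 ratio was 0.03 ± 0.33 for Cd28 over Icos and 0.17 ± 0.55 for Icos over Pdcd1, each positive in 2 of 4 libraries. Pdcd1 over Ctla4 was 0.42 ± 0.45, positive in 3 of 4. An exact test that flips the signs of the 4 ratios (two-sided permutation) cannot go below p = 0.13, so no pair could be called, and after adjustment over the 10 pairs the smallest value was 0.208.

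The order also depended on the quantification. In the table built straight from the reads, scaled to the same coding total, Icos led with 204 ± 40.7, followed by Cd28 with 187 ± 4.89, Pdcd1 with 187 ± 39.6, Ctla4 with 138 ± 12.8 and Btla with 39.9 ± 3.89. From the M4 gene counts, divided by the effective lengths of the main table and scaled to the TPM total of the matched genes, Pdcd1 led with 189 ± 36.9. Icos had 151 ± 34.2, Ctla4 121 ± 11.9, Cd28 118 ± 7.80 and Btla 26.3 ± 1.63 (SD, n = 4 each). Cd28 over Ctla4 then had a log2 ratio of -0.03 ± 0.14, positive in 2 of 4 libraries. The M4 table held 0.568 times as many reads of Cd28 as the main table, 0.692 times for Btla, 0.726 times for Icos, 0.893 times for Ctla4 and 1.02 times for Pdcd1. The median over 7863 genes was 1.16, and 16.7% of those genes had a lower ratio than Cd28. Btla was the lowest of the 5 genes in every library in all 3 tables.

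The balance of stimulatory to inhibitory receptor RNA varied between libraries and between tables. The summed TPM of Cd28 and Icos over that of Ctla4, Pdcd1 and Btla was 0.991, 1.11, 1.15 and 1.42 in libraries 1 to 4. The table made from the reads gave 0.927, 1.05, 1.04 and 1.31. The M4 counts gave 0.650, 0.803, 0.775 and 0.999, below 1 in all 4 libraries. Library 1 was below 1 in all 3 tables, and libraries 2 to 4 were above 1 in the main table and the table made from the reads. The TPM of Cd28 includes its noncoding transcript Cd28-203, at 56.3, 64.8, 56.6 and 67.9 TPM in libraries 1 to 4. Without it each ratio of the main table would be lower, and that ratio was not computed. Library 4 had the highest ratio in each table. Of the summed TPM, Btla held 4.90 ± 0.166% and Pdcd1 23.9 ± 5.06%.

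Alternative ends and skipped exons separate the products of these genes, and the transcripts are shown where they part. All sequences are from the GENCODE M21 transcripts, on mm10, read 5′ to 3′ on the strand of the gene. For Ctla4, capitals mark exon 3 of Ctla4-201, 110 bases at chr1:60913219-60913328 that encode the membrane-spanning part. Ctla4-202 joins exon 2 directly to the last exon, and 110 is not a multiple of the codon size, so its reading frame after the junction is another one.
Ctla4-201: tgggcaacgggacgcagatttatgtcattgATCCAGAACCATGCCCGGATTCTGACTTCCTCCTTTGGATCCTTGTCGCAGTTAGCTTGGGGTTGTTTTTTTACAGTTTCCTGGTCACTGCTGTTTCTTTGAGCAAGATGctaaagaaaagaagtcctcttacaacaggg
Ctla4-202: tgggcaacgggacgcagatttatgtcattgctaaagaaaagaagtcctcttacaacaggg

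For Icos, capitals mark the coding end that each transcript has to itself, its stop codon included. Icos-201 reads on past the splice donor of exon 4 for 83 coding bases at chr1:60995609-60995691. Icos-202 is spliced there to exon 5 and has 14 coding bases of its own at chr1:60997701-60997714.
Icos-201: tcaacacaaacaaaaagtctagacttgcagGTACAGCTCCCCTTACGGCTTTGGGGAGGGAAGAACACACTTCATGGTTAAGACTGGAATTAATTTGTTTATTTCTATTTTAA
Icos-202: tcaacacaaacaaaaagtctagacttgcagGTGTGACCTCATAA

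For Cd28, capitals mark what follows exon 2. In Cd28-201 this is exon 3, which starts at chr1:60765277-60765306. In Cd28-203 it is intron 2, from chr1:60763336-60763365 on.
Cd28-201: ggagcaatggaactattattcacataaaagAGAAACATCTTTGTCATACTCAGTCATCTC
Cd28-203: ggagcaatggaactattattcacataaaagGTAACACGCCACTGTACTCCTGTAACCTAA

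For Btla, capitals mark the 3 bases at chr16:45244153-45244155 that an earlier splice acceptor adds in Btla-201.
Btla-201: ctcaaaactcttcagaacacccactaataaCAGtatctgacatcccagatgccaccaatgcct
Btla-202: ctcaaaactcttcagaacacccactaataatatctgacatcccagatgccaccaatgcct

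**Figure D2:**
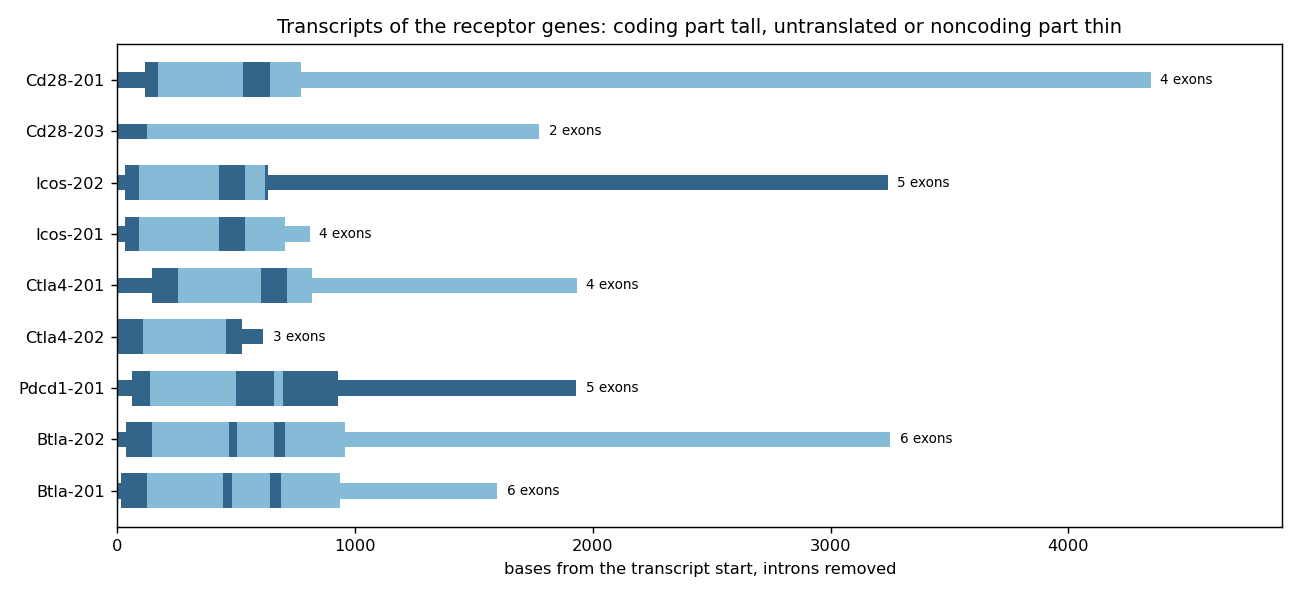
Exons of the transcripts with a mean of at least 1% of the TPM of their gene, drawn to scale with introns removed. The x axis is bases from the transcript start, tall boxes are coding, thin boxes are untranslated or noncoding, and shades alternate between exons. Icos-201 ends at 810 bases against 3241 for Icos-202, and Ctla4-202 lacks the 110 bases of exon 3.

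Ctla4 RNA was almost wholly assigned to the membrane form. The annotated Ctla4-202 ends at chr1:60914769 and Ctla4-201 at chr1:60915832, so reads between those ends can go only to Ctla4-201. Ctla4-201, with 4 exons and 223 codons, held 100%, 98.4%, 97.5% and 97.3% of the TPM of Ctla4 in libraries 1 to 4. Ctla4-202, with 174 codons, is known to encode a soluble form. It had 0, 1.74, 3.79 and 4.05 TPM, or 0, 6.06, 12.78 and 9.75 expected counts. The 0 in library 1 came from 1762 counts of Ctla4 and allows a share of counts of up to 0.170%, for counting error only. That limit takes every count as able to tell the transcripts apart, which shared exons prevent. The deposited posterior mean count of Ctla4-202 in library 1 was 3.17. The table made from the reads also had it at 0 in library 1, and gave 17.2, 19.8 and 10.3 estimated counts in libraries 2 to 4. The deposited posterior mean of Ctla4-202 was 1.06, 2.37, 4.00 and 3.90 TPM, and its deposited upper bounds were 3.21, 5.34, 7.79 and 7.85 TPM. The posterior means in libraries 3 and 4 lay above the upper bound in library 1, and that in library 2 lay below it. The confidence level of those bounds is not given in the sources used here. Ctla4-203, a noncoding transcript that starts upstream, had at most 0.910 TPM in the main table and 2.79 ± 0.407% of the TPM of Ctla4 in the table made from the reads.

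Icos RNA was divided between both coding ends. Icos-202, with 5 exons, 200 codons and a 3′ UTR of 2606 bases, had 117, 101, 154 and 163 TPM. Icos-201, with 223 codons and a 3′ UTR of 106 bases, had 80.1, 87.5, 129 and 136 TPM. Icos-202 thus held 59.3%, 53.5%, 54.4% and 54.4% of the TPM of Icos. Library 1 was above the other 3, which lay within 53.5% to 54.4%. Both transcripts were higher in libraries 3 and 4 than in libraries 1 and 2. The ratio of Icos-202 to Icos-201 was 1.15 to 1.46 in the main table and 0.994 to 1.19 in the table made from the reads, where library 2 was just below 1. By expected counts, which are not scaled for length, Icos-202 held 85.6 ± 1.25% (SD, n = 4), and Icos-201 is 810 bases long against 3241. The only bases that Icos-201 has to itself lie past exon 4, in the intron that Icos-202 splices out, so mature Icos-201 and unspliced Icos RNA cannot be told apart there.

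Cd28 has 1 annotated coding transcript. Cd28-201, with 4 exons, 218 codons and a 3′ UTR of 3574 bases, held 76.5%, 73.1%, 76.4% and 72.6% of the TPM of Cd28. The rest went to Cd28-203, a noncoding transcript that keeps 1291 of the 1941 bases of intron 2, at 56.3, 64.8, 56.6 and 67.9 TPM. Libraries 2 and 4 had the higher share of Cd28-203 in both transcript tables. The table made from the reads gave Cd28-201 a share of 76.6 ± 2.04%, against 74.7 ± 2.09% in the main table (SD, n = 4). Cd28-202 had 0 counts in every library in both tables. In the main table that allows a share of counts of up to 0.0454% to 0.0643%, if every count could tell the transcripts apart. The tables do not separate a kept intron from RNA that was not yet spliced.

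Btla RNA was mainly Btla-202, with 305 codons and a 3′ UTR of 2295 bases. It held 86.6%, 84.4%, 91.7% and 86.8% of the TPM of Btla. Btla-201, with 306 codons and a 3′ UTR of 661 bases, had 5.98, 5.61, 3.78 and 5.98 TPM, from 41.1 to 63.0 expected counts. It was lowest in library 3 in both tables. The table made from the reads gave Btla-202 74.4 ± 5.78% and put between 3.95% and 11.1% in the noncoding Btla-203, which had reads in library 2 alone in the main table (1.79 expected counts). Pdcd1 has 1 annotated transcript, Pdcd1-201, with 5 exons, 288 codons and a 3′ UTR of 1000 bases, so all its reads went there.

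**Figure D3:**
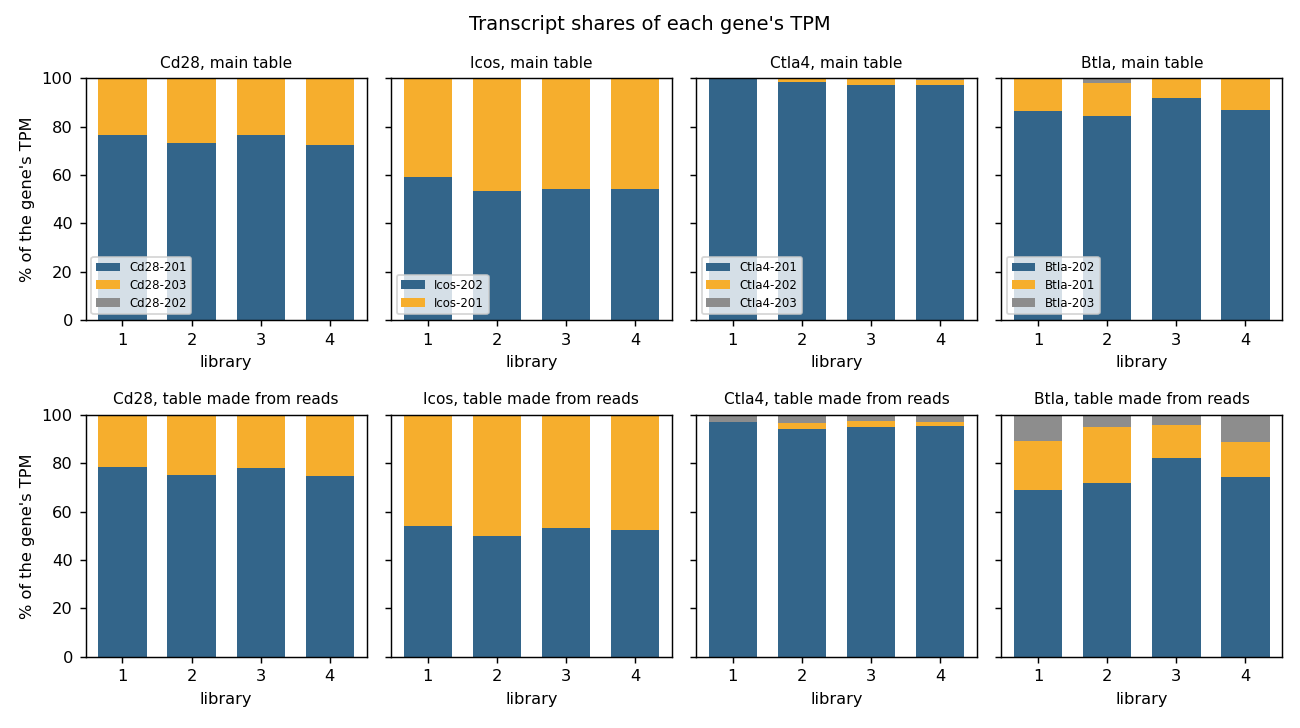
Percent of the TPM of Cd28, Icos, Ctla4 and Btla in each annotated transcript, with 1 stacked bar for each of libraries 1 to 4, in the main table (upper row) and in the table made from the reads (lower row). Ctla4-201 holds 97.3% to 100% in the main table, while Icos is divided between Icos-202 (53.5% to 59.3%) and Icos-201.

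The share of counts of 4 of the 5 genes differed between libraries by more than counting error. The same test called 68.6% of the 13045 genes tested, so a call was common in these data. The test can call smaller differences at higher counts. The share of calls among genes of like counts was not computed, for the receptors or for the lists below. It was a Poisson likelihood ratio test with TMM-adjusted library sizes from edgeR, and p-values were adjusted by Benjamini-Hochberg over those genes. In CPM, counts scaled to the TMM library size, Icos had 317, 321, 439 and 472 in libraries 1 to 4, a 1.49-fold range (adjusted p = 4.2e-87). Pdcd1 had 347, 308, 341 and 224 CPM, a 1.55-fold range (adjusted p = 6.6e-52), and 1.13-fold without library 4. Ctla4 had 193, 222, 222 and 254 CPM, a 1.32-fold range (adjusted p = 1.6e-13). Cd28 had 663, 738, 678 and 692 CPM, a 1.11-fold range (adjusted p = 2.5e-08). Library 2 was the highest of Cd28 in CPM and library 4 in TPM, and without library 2 the range was 1.04-fold and the call was lost (adjusted p = 0.122). Btla had 98.7, 99.6, 107 and 104 CPM, a 1.08-fold range that was not called (adjusted p = 0.305). The median range was 1.32-fold over the 5 genes, 1.49-fold over 12972 tested genes with reads in every library and 1.32-fold over the 3555 whose mean count reached 500.

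**Figure D4:**
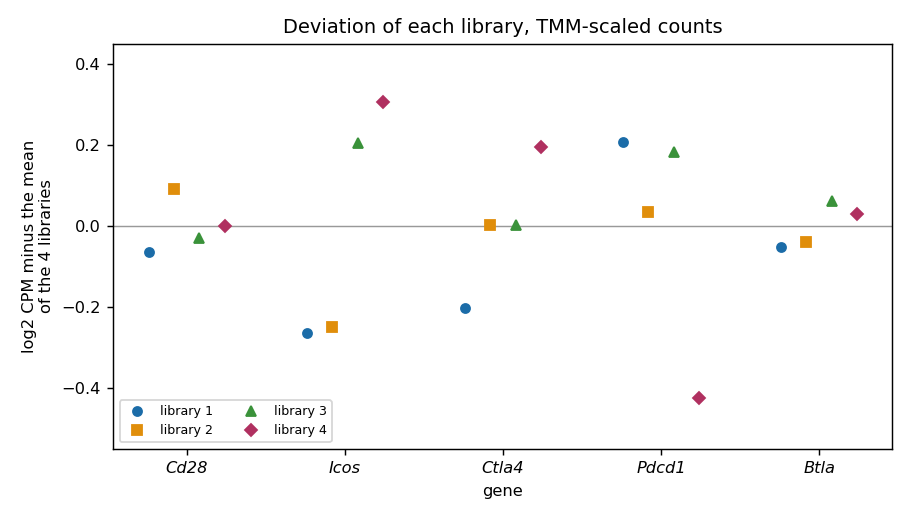
Log2 CPM of each library minus the mean of the 4 libraries, on TMM-scaled counts, for Cd28, Icos, Ctla4, Pdcd1 and Btla. Each point is 1 library. Pdcd1 in library 4 lies at -0.43, Icos in libraries 3 and 4 at 0.21 and 0.31, and Btla stays between -0.05 and 0.06.

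Icos and Pdcd1 deviated in opposite directions in libraries 1, 2 and 4. On the log2 CPM scale, Icos deviated from its mean by -0.26, -0.25, 0.21 and 0.31, and Pdcd1 by 0.21, 0.04, 0.18 and -0.43. In library 3 both were above their means. The T cell and regulatory T cell markers varied as well. Foxp3 had 20.3, 21.7, 32.8 and 36.4 TPM in libraries 1 to 4, and Ikzf2 had 279, 350, 562 and 457. Both were higher in libraries 3 and 4, as Icos was. Cd4, named after its value was seen, had 516, 495, 309 and 318 TPM, lower in libraries 3 and 4. Lck and Cd3e were also lower there, and Trac and Il2ra did not divide that way. Markers of other cells also varied. The B cell markers summed to 226, 147, 98.2 and 175 TPM in libraries 1 to 4, and the CD8 and NK markers to 139, 121, 156 and 204 TPM. The myeloid and dendritic markers summed to 35.5, 12.9, 10.3 and 23.6 TPM. Library 4, with the highest Icos and the lowest Pdcd1, had the highest CD8 and NK sum and the fewest counts. Nkg7 alone made up 186 of the 204 TPM of that sum, and Cd8b1 was highest in library 1, at 14.2 TPM against 11.8 in library 4. The part of these differences in the receptor levels was not tested. Between 39.7% and 44.6% of tested genes differed within the pairs of libraries, other than libraries 3 and 4, which differed in 20.5%.

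Many genes had a library profile close to that of a receptor. Over 4 libraries, the root mean square difference of centred log2 CPM was 0.0169 for Trim59 and 0.0194 for Phactr2, the nearest of 7861 coding genes to Icos. Nearest to Pdcd1 were Tmem115 (0.0171) and Fam207a (0.0246), and nearest to Ctla4 were B2m (0.00560) and Polr3f (0.0133). Nearest to Cd28 were Pbdc1 (0.00828) and Surf1 (0.0112), and nearest to Btla were Cap1 (0.00506) and Cd164 (0.0129). Within 0.1 of Cd28 lay 1350 genes, of Btla 1105, of Ctla4 667, of Icos 231 and of Pdcd1 57. Between the receptors the smallest difference was 0.0819, for Cd28 and Btla, and the largest was 0.459, for Icos and Pdcd1.

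Ligands of the family were read in the same RNA. Of 8 ligand genes, 5 reached 1 TPM in all libraries, 4 reached 10 TPM and 1 was at 0 throughout the main table. Tnfrsf14, which encodes the BTLA ligand HVEM, was the highest with 75.8, 51.9, 88.6 and 94.7 TPM in libraries 1 to 4. Cd86, the CD28 and CTLA-4 ligand, had 44.5, 39.5, 51.5 and 41.1 TPM. Cd274, which encodes the PD-1 ligand PD-L1, had 46.0, 36.1, 44.4 and 43.7 TPM. Vtcn1, a related ligand gene, had 0 counts in every library in the main table, which allows up to 3 counts in each. The table made from the reads gave it a mean of 0.00843 TPM, scaled to the main coding total. The other ligands are named after their values were seen. Pdcd1lg2, which encodes PD-L2, stood at 16.8 ± 3.44 TPM, Icosl at 7.35 ± 1.87 and Cd80 at 1.16 ± 0.649. Cd276 had 1 count in library 1 and 0 in the others. The 6 ligand genes with enough counts all differed between libraries, against 68.6% of all tested genes. Icosl and the sum of the B cell markers were both highest in library 1 and lowest in library 3. Cd80, Cd86 and Pdcd1lg2 were instead highest in library 3, at 2.00, 51.5 and 22.0 TPM, and within the B cell list Cd79b and Blk were highest in library 4. B cells and myeloid cells are known to express several of these ligands. The part of such cells in the ligand levels was not tested.

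Genes that carry the receptors' signals were present throughout. All 17 costimulatory signalling genes reached 1 TPM in every library and 13 reached 10 TPM. Lck, the kinase that phosphorylates the receptor tails, led at 1449 ± 151 TPM, followed by the adaptor gene Lcp2 (386 ± 44.4). Sos1, an activator of Ras, was the lowest at 4.01 ± 0.686 TPM. Of these 17 genes, 15 differed between libraries, with a median 1.39-fold range, against 68.6% and 1.49-fold over all tested genes. That 68.6% was not matched for counts. Over tested genes whose mean count reached 500 the median range was 1.32-fold. Among the 5 phosphatase genes, Ppp2r1a, a PP2A scaffold, stood at 191 ± 8.92 TPM. Ptpn6, which encodes SHP-1, had 204, 213, 133 and 110 TPM, high in libraries 1 and 2 and low in libraries 3 and 4. Inpp5d, which encodes the lipid phosphatase SHIP-1, stood at 103 ± 9.86 TPM, and the catalytic PP2A gene Ppp2ca was the lowest at 9.33 ± 2.44. Ptpn11, named after its value was seen, encodes SHP-2, a main partner of PD-1, and stood at 10.2 ± 3.31 TPM. All 5 differed between libraries, where 68.6% of all tested genes did. Their median range was 2.09-fold, against 1.49-fold over all genes and 1.32-fold over those whose mean count reached 500.

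Genes that move CTLA-4 to and from the cell surface were also read, since most CTLA-4 protein is known to lie inside the cell. Of 10, 9 reached 1 TPM in all libraries and 8 reached 10 TPM. Ap2m1, the clathrin adaptor subunit that binds the CTLA-4 tail for uptake, led at 408 ± 44.9 TPM. Arf1, a Golgi GTPase gene, stood at 276 ± 44.2 and Rab8a, a transport GTPase, at 140 ± 32.8 TPM. Rab11fip5, a partner of the recycling GTPase Rab11, was the lowest at 0.245 ± 0.196 TPM. Lrba, named after its value was seen, protects CTLA-4 from lysosomal breakdown and stood at 10.1 ± 2.02 TPM. Of the 9 with enough counts, 7 differed between libraries, a share near the 68.6% of all tested genes.

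Of 11 regulators of the family's transcripts, all reached 1 TPM in every library and 8 reached 10 TPM. Tox, a factor linked to sustained Pdcd1 expression, led with 144, 153, 225 and 150 TPM, highest in library 3. Batf had 118, 127, 203 and 134 TPM and Nfatc1, which binds the Pdcd1 promoter region, had 87.4, 69.8, 85.5 and 83.3 TPM. Batf was also highest in library 3, where Icos was high and Pdcd1 was above its mean. Icos was highest in library 4, at 299 TPM, where Batf had 134 and Tox 150 TPM. Pdcd1 was highest in library 1, at 255 TPM, where Batf and Tox were lowest. Zc3h12a, which encodes the RNase Regnase-1 that cuts Icos mRNA, was the lowest at 3.91 ± 0.981 TPM. Rc3h1, named after its value was seen, encodes Roquin-1, which represses Icos mRNA through its 3′ UTR, and stood at 8.91 ± 0.811 TPM. Foxp3 had 20.3, 21.7, 32.8 and 36.4 TPM in libraries 1 to 4, and Maf had 62.2, 58.2, 82.6 and 90.2. Both were higher in libraries 3 and 4 than in libraries 1 and 2, as Icos was. So were Batf, Nfatc2, Rc3h1 and Rc3h2, while Tox, Nfatc1, Bach2, Prdm1 and Zc3h12a were not. Maf, Nfatc2, Rc3h2, Bach2 and Prdm1 were named after their values were seen. A part of these genes in the Icos level was not tested. Of the 11 genes, 10 differed between libraries, where 68.6% of all tested genes did. Their median range was 1.5-fold, against 1.49-fold over all genes and 1.32-fold over those whose mean count reached 500.

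**Figure D5:**
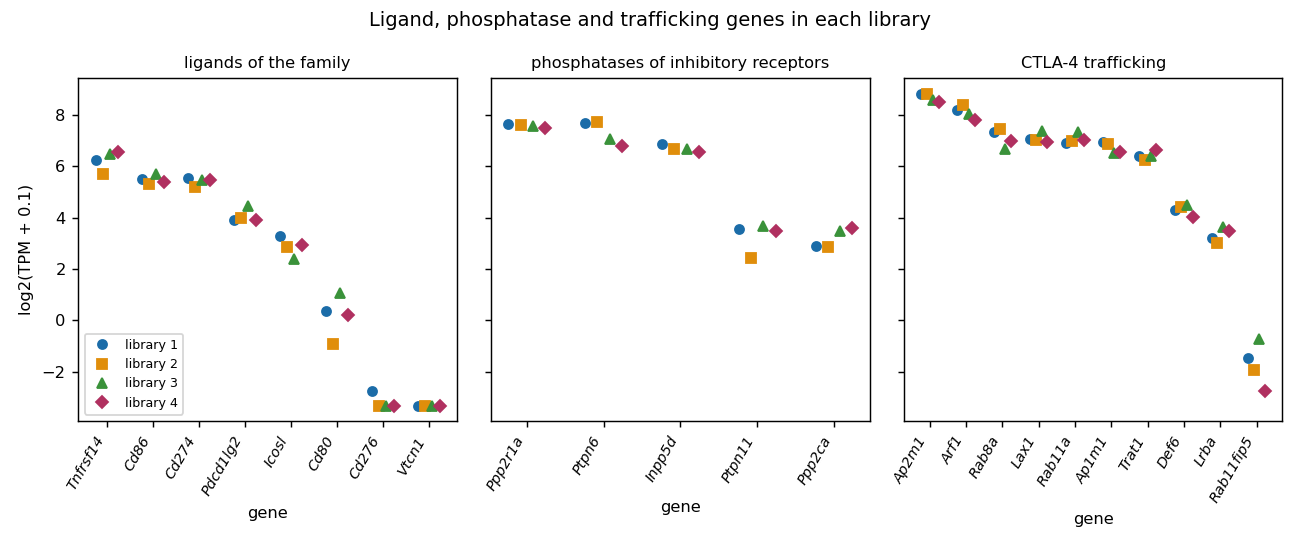
Log2(TPM + 0.1) of the ligand, phosphatase and CTLA-4 trafficking genes in each library, ordered within each panel by mean TPM. Points are libraries. Tnfrsf14, Cd86 and Cd274 lead the ligands, Vtcn1 lies at 0 TPM in all 4 libraries, and Ptpn6 is higher in libraries 1 and 2 than in libraries 3 and 4.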

How the data were processed

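PolyA RNA-seq of 1 mouse biosample gave 4 technical libraries, with 1 biological replicate and no second group. The authors' deposited main gene and transcript tables hold expected counts, TPM and each transcript's percent of its gene's TPM, per the file headers, made from reads aligned to the GENCODE M21 transcriptome (mm10), per the submitters' notes. The authors' deposited second transcript table holds estimated counts and TPM made from the reads on the same annotation, and their deposited M4 table holds whole-number counts per gene from a genome alignment. The sources used here name neither programs nor strand settings. The labels give Covaris shearing and a size range of 100 to 300.

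Rows outside the annotation (0.133% to 0.504% of expected counts) were left out. M4 counts of 22195 matched genes were divided by effective length (at least 50 bases) and scaled to the TPM total. Those lengths were the mean over libraries in the main table, not lengths of the M4 annotation. The second table's TPM was summed per gene and scaled to the coding total of the main table. Expected counts were rounded and tested across libraries with a Poisson likelihood ratio test on edgeR 4.0.16 TMM sizes, for genes whose mean count reached 10, at an adjusted p of 0.05. DESeq2 1.42.0 gave alternative size factors (R 4.3.3). Ratios used TPM + 0.1. The rest used Python 3.11.15 with pandas 2.3.3, numpy 2.4.6, matplotlib 3.10.9 and scipy 1.17.1.

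The 88 genes of 10 lists were all matched. The receptors, lists and tests were chosen with earlier results of these data known. Of each list the text names the 3 genes of highest mean TPM and the lowest, for each receptor the 2 coding genes (mean count at least 100) with the nearest library profile, and transcripts with at least 5% of their gene's TPM in any library. A gene that this rule would name is not reported here. Ctla4-202, Ctla4-203 and Cd28-202 fall outside that rule and were named after their values were seen. Alternatives were the other tables, size factors, pseudocount and filter, and leaving out each library.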

Additional observations from a re-analysis of the deposited data

Results flagged for a closer look

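Among 31 sets of 4 library values, 5 had a library that stood apart from the other 3 by Dixon's test, and chance alone would mark about 1 set in 20. Cd28 stood at 248.02 TPM in library 4, against 240 to 241 in the others. The Btla-201 share of the TPM of Btla was 8.25% in library 3, against 13.2% to 13.9% in the others. Btla-203 held 1.71% in library 2, from 1.79 expected counts, and 0 in the others. With the others at 0, any value above 0 would have stood apart. The Icos-201 share was 40.7% in library 1, against 45.6% to 46.5%, and the Icos-202 share 59.3% there, against 53.5% to 54.4%. The last 2 are the same difference, since both shares add to the whole. In the table made from the reads no library stood apart for these transcripts.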

How the results depend on the processing

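Of 136 alternative values, 115 kept their direction and side of the threshold or stayed within the spread between libraries. The table made directly from the reads moved the level of Cd28 to 187, Ctla4 to 138 and Btla to 39.9, and the leading transcript share to 95.5% for Ctla4, 52.4% for Icos and 74.4% for Btla. Length-scaled M4 counts moved the level of Cd28 to 118, Ctla4 to 121, Icos to 151 and Btla to 26.3. Shares of expected counts, not scaled for length, moved the leading share to 88.5% for Cd28, 99.5% for Ctla4, 85.6% for Icos and 93.9% for Btla. The log2 ratio of Cd28 over Icos reversed to -0.10 in the table made from the reads and to -0.33 in M4 counts, and ranged from -0.075 to 0.13 with 1 library left out. That of Icos over Pdcd1 reversed to -0.33 in M4 counts and ranged from -0.083 to 0.35. The cause was not tested. Leaving out a library gave 7049 to 8154 genes that differed between libraries, against 8945. DESeq2 size factors gave 8940, no filter 9580 of 25782, M4 counts 8558 of 10910 and counts made from the reads 10848 of 17357. Btla was not called in any of these settings and the other 4 receptors were called in all, except Cd28 without library 2 (adjusted p = 0.122 by the Poisson likelihood ratio test, 1.04-fold). No paired analysis was possible because there was 1 group. The precision of the minor Ctla4 and Btla transcripts is limited by their 28.6 and 211 expected counts over the 4 libraries.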
